A study of Homo sapiens with 6 samples.

Results

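Semaphorins, plexins, neuropilins, ephrins, Eph receptors, Slits and Robos are the ligands and receptors of axon guidance, and they were followed here in H226 cells after knockdown of a long noncoding RNA. Members were every gene name of the count table that fits the naming pattern of these families. This gave 43 of the 17222 gene names: 13 semaphorins, 7 plexins, 2 neuropilins, 8 ephrins, 8 Eph receptors, 2 Slits and 3 Robos. A further 17 gene names that fit the pattern were not analysed here, *SEMA3A*, *SEMA3D*, *SEMA6A*, *ROBO2*, *SLIT1* and *EPHA3* among them. The study describes the established human line H226 as a squamous carcinoma of the lung. Of the markers given below, this line held 7 of 7 mesothelial but 1 of the 3 analysed squamous ones above 1 CPM in every library. It received ASO_LINC, an antisense oligonucleotide against the lncRNA *SWINGN* that the labels number as the third, or the control oligonucleotide ASO_CTRL, and RNA was taken 48 h later from 3 replicates of each condition. All libraries therefore come from transfected cells of a single line, and the knockdown rests on a single oligonucleotide. *SWINGN* was not analysed here, and whether it was depleted in these libraries was not checked.

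Semaphorins are secreted, transmembrane or lipid-anchored ligands. Plexins are their signalling receptors and act on small GTPases, while neuropilins serve as co-receptors for the secreted semaphorins. Ephrins are membrane-bound ligands of the Eph receptor tyrosine kinases: the A ephrins hang on a lipid anchor and the B ephrins span the membrane. Slits are large secreted proteins read by Robo receptors. Outside the nervous system these families take part in cell contact, epithelial sheet formation, vessel growth and tumour cell migration.

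*SEMA5A*, whose product carries thrombospondin repeats next to its semaphorin domain, was the guidance gene for which the study designed RT-qPCR primers, and they are shown here because they mark where on the transcript its fall can be measured. On GRCh37 the gene runs on the minus strand of chromosome 5 from 9035145 to 9546187. The forward primer spans the junction of exons 2 and 3 of the canonical transcript and the reverse primer lies in exon 3 at chr5:9380042-9380061, which gives an amplicon of 95 bases.
*SEMA5A* forward primer: ggcactttccacacatgagg
*SEMA5A* reverse primer: acacaggttcccttcatggt

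The 250 bases upstream of the transcription start are shown for *SEMA5A* and *SEMA7A*, a semaphorin that fell and a semaphorin that rose, and for *EPHA2*, the most abundant Eph receptor. They are taken from RefSeq, build GRCh38.p14, and are read on the gene's own strand (minus for all of them). The *SEMA5A* window is chr5:9546076-9546325, that of the first annotated *SEMA7A* start is chr15:74433959-74434208, and that of *EPHA2* is chr1:16156070-16156319. Capitals mark a cAMP response element, TGACGTCA.
*SEMA5A* promoter: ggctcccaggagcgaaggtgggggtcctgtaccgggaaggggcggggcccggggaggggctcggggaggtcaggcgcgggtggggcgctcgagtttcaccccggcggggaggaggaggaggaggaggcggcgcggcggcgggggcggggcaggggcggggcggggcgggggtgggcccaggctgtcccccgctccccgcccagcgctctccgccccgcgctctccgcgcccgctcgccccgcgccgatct
*SEMA7A* promoter: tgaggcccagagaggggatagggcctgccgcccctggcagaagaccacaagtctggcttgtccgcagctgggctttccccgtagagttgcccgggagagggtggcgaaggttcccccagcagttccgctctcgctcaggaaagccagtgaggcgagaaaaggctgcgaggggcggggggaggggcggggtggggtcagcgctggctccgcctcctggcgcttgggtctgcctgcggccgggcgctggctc
*EPHA2* promoter: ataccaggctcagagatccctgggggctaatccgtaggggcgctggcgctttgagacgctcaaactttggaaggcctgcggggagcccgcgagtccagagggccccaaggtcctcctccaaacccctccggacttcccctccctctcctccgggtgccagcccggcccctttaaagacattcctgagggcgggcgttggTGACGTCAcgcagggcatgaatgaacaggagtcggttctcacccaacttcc

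Of the windows shown, that of *SEMA5A* was the richest in G and C, at 82.0% with 33 CpG dinucleotides, against 70.0% and 17 for *SEMA7A* and 63.2% and 15 for *EPHA2*. The window of the second annotated *SEMA7A* start, not shown, had 77.6% and 38 CpG dinucleotides, more of these than *SEMA5A*. Over the 15 annotated start windows of the 8 guidance genes that changed, the AP-1 motif that the study worked with, TGANTCA, was found in 0, and 6.57% of 35116 windows of the same length hold it, and no lack is read from so few windows. Windows of the same gene can overlap. The element in the *EPHA2* window starts 51 bases before the start site. It was searched for after the windows had been looked at, and it was in 1 of the 15 windows and in 1.65% of all windows. Both motifs read the same on either strand and share no site. These matches describe letters and say nothing of binding.

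Of the 43 guidance genes, 38 had enough reads to be tested among 14660 genes. The other 5, *EPHA6*, *EPHA10*, *ROBO4*, *SEMA4G* and *SEMA6C*, had from 0 to 23 reads in each library and get no call. Of these, *ROBO4*, the endothelial Robo, was at 0.672, 0.858 and 0.381 CPM (read counts scaled to library size with TMM factors) in ASO_CTRL and at 1.61, 1.71 and 1.35 CPM in ASO_LINC, from 4 to 11 reads per library, and the other 4 were at 2.19 CPM or less. A gene was called when edgeR's quasi-likelihood test gave a Benjamini-Hochberg adjusted p below 0.01 over all tested genes and a log2 fold change of ASO_LINC over ASO_CTRL beyond 0.5. Called guidance genes numbered 8 of 38 (21.1%), against a background of 7.54% of all tested genes. The families were chosen with earlier results of these data known, so these shares are set side by side with no test. *SEMA4B*, *SEMA7A*, *PLXNA2* and *EPHA2* rose, and *SEMA5A*, *SEMA4A*, *EPHA4* and *EPHB6* fell. The background was 4.91% for higher and 2.63% for lower calls. The families did not shift as a body: 18 of the 38 had a positive and 20 a negative fold change, with a median log2 fold change of -0.03 beside -0.00 over all tested genes. The libraries of both conditions did not overlap for 22 of the 38 (57.9%), 11 in each direction, while this held for 36.1% of all tested genes (18.7% higher, 17.3% lower).

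**Figure D1:**
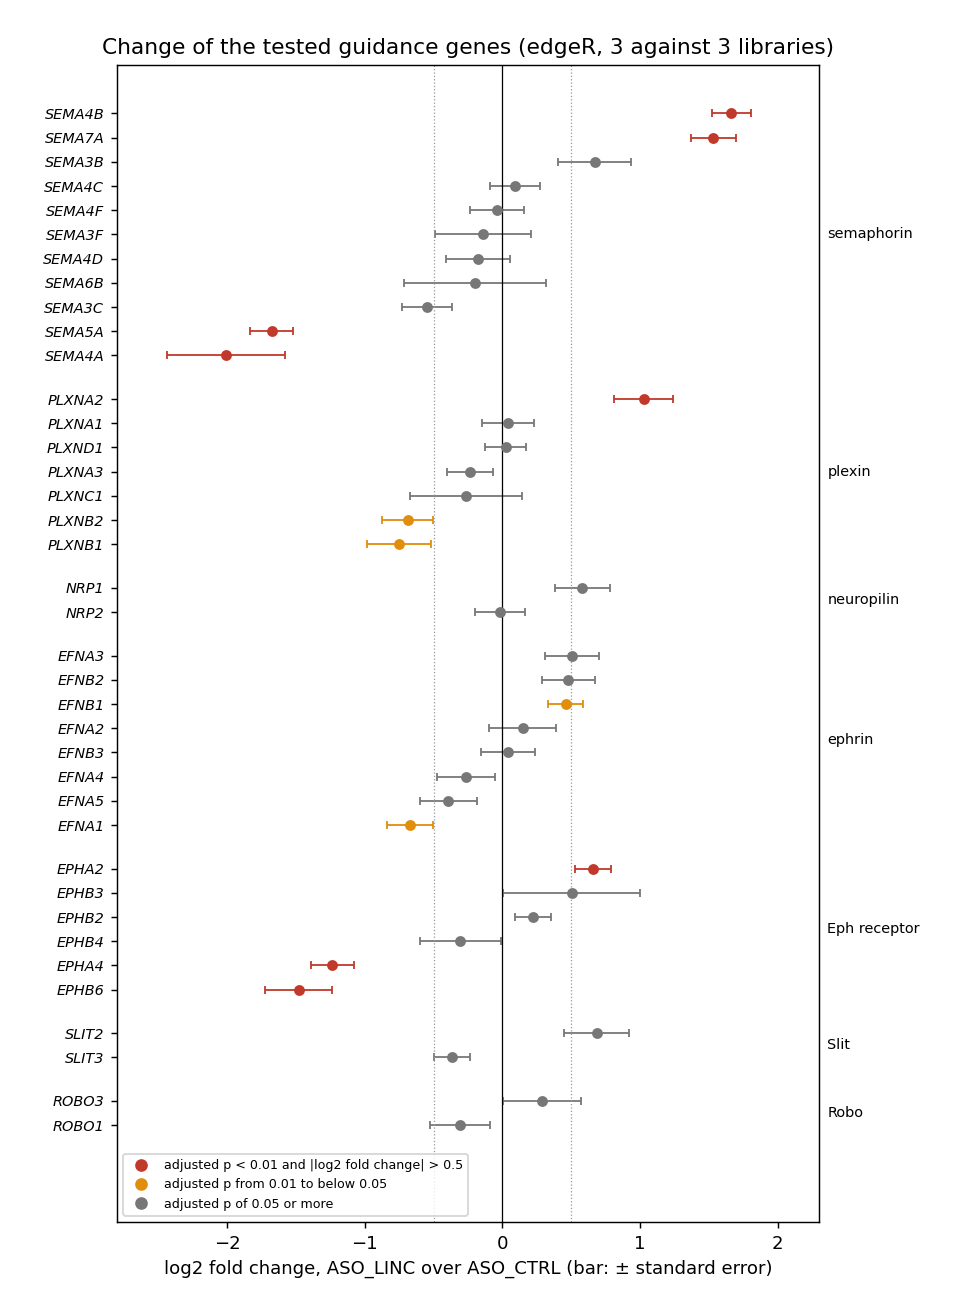
Log2 fold change (ASO_LINC over ASO_CTRL, x axis) of the 38 tested guidance genes, grouped by family on the y axis. Points are edgeR estimates, bars are ± 1 standard error, dotted lines mark 0.5 in either direction and colours give the adjusted p. *SEMA4B* and *SEMA7A* lie farthest to the right, *SEMA4A*, *SEMA5A*, *EPHB6* and *EPHA4* farthest to the left.

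Reads on genes ranged from 3686828 to 10546786 per library, and the shallowest was ASO_LINC replicate 3, in which 1 read corresponds to 0.270 CPM. By chi-square per degree of freedom, ASO_LINC replicates 1 and 2 were closer to each other than either was to replicate 3. Replicate 3 lay between the other ASO_LINC libraries in 11 of the 38 tested guidance genes and in 2279 of all 14660 tested genes. It thus stood apart no more often in these families than elsewhere, but in these families it lay mostly higher. Its change from the control mean was above that of both other ASO_LINC libraries in 22 of the 38 tested guidance genes (57.9%) and below both in 5 (13.2%), while over all tested genes these shares were 41.9% and 42.6%. For several guidance genes the value without it is given as well, but not for every gene whose value moved. Some small changes turned sign without it, such as the log2 fold change of *SEMA4C* (0.09 with it, -0.08 without). Markers of several cell types, squamous cells among them, were read beside the guidance genes in this single line. All 7 mesothelial markers were above 1 CPM in every library, with a sum of 6948 to 7444 CPM in ASO_CTRL and 3944 to 6859 in ASO_LINC. Most of this sum came from *KRT18* and *KRT8*, at means of 5074 and 1184 CPM in ASO_CTRL and 3679 and 943 in ASO_LINC. Of the mesothelial markers *CALB2* and *LRRN4* fell. *UPK3B* was lower too, at means of 49.3 CPM in ASO_CTRL and 26.4 in ASO_LINC, and just missed the threshold (log2 fold change -0.92, adjusted p = 0.0104). *KRT18*, *KRT8*, *MSLN* and *WT1* were not called. The 3 fibroblast markers analysed, *COL1A1*, *COL3A1* and *PDGFRB*, all fell, from a sum of 283 to 396 CPM to a sum of 127 to 144. Of 10 squamous markers 3 were analysed, with *KRT5* at 103 CPM in ASO_CTRL and 68.8 in ASO_LINC (adjusted p = 0.0192), *KRT6A* and *CLCA2* at or below 1.43 CPM in both condition means, and *TP63*, *SOX2*, *KRT14* and 4 others not analysed here. Endothelial markers were not analysed here, and no leukocyte, neuron or glial marker was called (sums of 2.55 to 3.61, 24.7 to 25.9 and 76.9 to 81.7 CPM in ASO_CTRL and 3.52 to 8.65, 23.0 to 37.3 and 74.1 to 94.6 in ASO_LINC). The libraries come from a single line, so the marker lists describe its expression and not a mixture of tissues. The study names *COL1A1* and *PDGFRB* among the targets of *SWINGN* and SMARCB1. The part of these markers in the changes of the guidance genes was not tested. In such bulk libraries fewer cells that express a gene and less RNA per cell cannot be told apart.

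**Figure D2:**
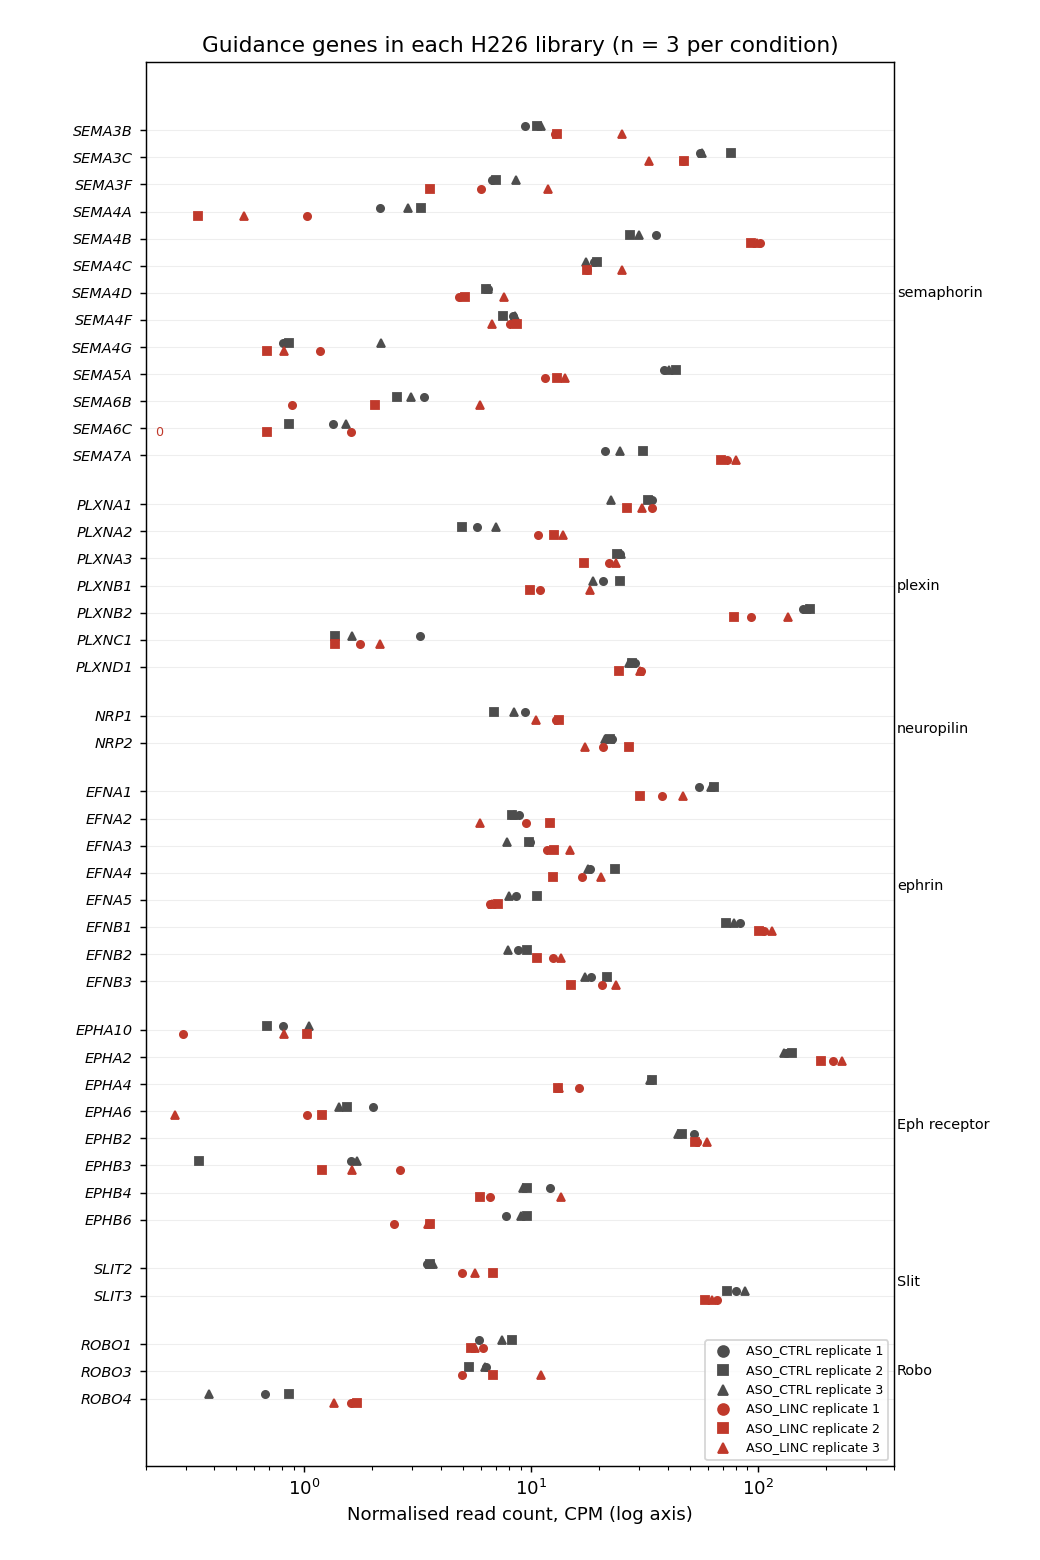
Level of each guidance gene in every library, in CPM on a log axis (not divided by length), by family. Each point is 1 library, coloured by condition, and a printed 0 marks a library without reads. *PLXNB2* at 159 to 170 CPM and *EPHA2* at 130 to 142 CPM are the highest in ASO_CTRL, and the points of *SEMA4B*, *SEMA7A*, *SEMA5A* and *EPHA4* separate by condition.

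Among the semaphorins, 2 of the 11 tested rose, 2 fell and 7 did not pass the test. *SEMA4B*, a transmembrane class 4 semaphorin, was at 35.7, 27.3 and 29.8 CPM in ASO_CTRL replicates 1, 2 and 3 and at 102, 93.2 and 99.5 CPM in ASO_LINC. Every knockdown library was thus well above every control library. The fold change was 3.17 (log2 1.66 ± 0.14 SE, adjusted p = 5.87e-05), and the change of the single libraries was 1.72, 1.59 and 1.68 on the log2 scale. The gene lies on the plus strand of chromosome 15 (GRCh37, 90703836 to 90772911).

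*SEMA7A*, the lipid-anchored semaphorin that binds *PLXNC1* and integrins, gave 21.2, 31.1 and 24.7 CPM in ASO_CTRL and 73.5, 68.8 and 80.0 CPM in ASO_LINC. The conditions did not overlap, and the rise was 2.89-fold (log2 1.53 ± 0.16 SE, adjusted p = 0.000197). *SEMA7A* lies on the same chromosome as *SEMA4B*, on the minus strand (GRCh37, 74701630 to 74726299). Its receptor *PLXNC1* was low, at 3.22, 1.37 and 1.62 CPM in ASO_CTRL and 1.76, 1.37 and 2.16 CPM in ASO_LINC. It had from 8 to 24 reads per library, so a modest change of *PLXNC1* could have been missed at this depth (log2 fold change -0.27 ± 0.41 SE, adjusted p = 0.696).

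*SEMA5A* moved the other way. It was at 38.6, 43.8 and 40.4 CPM in ASO_CTRL and at 11.6, 13.0 and 14.1 CPM in ASO_LINC, a 3.20-fold fall (log2 -1.68 ± 0.16 SE, adjusted p = 8.30e-05). The spread within each condition was small beside the gap between them. A noncoding gene on the opposite strand shares 436 exon bases with *SEMA5A*, and whether reads were counted by strand is not given in the sources used here.

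*SEMA4A*, a transmembrane semaphorin known from immune cells, fell from a low level. It had 16, 19 and 30 reads in the ASO_CTRL libraries (2.15, 3.26 and 2.86 CPM) and 7, 2 and 2 reads in the ASO_LINC libraries (1.03, 0.341 and 0.541 CPM). Summed over libraries, ASO_LINC held 0.246 of the control level, with an exact 95% interval of 0.117 to 0.469 that covers counting error only. The fitted log2 fold change was -2.01 ± 0.43 SE at an adjusted p of 0.00997, just inside the threshold. The call was lost without any one of the 6 libraries (adjusted p = 0.0109 to 0.0504).

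The 7 semaphorins without a call included the semaphorin with the highest CPM in ASO_CTRL, *SEMA3C*, a secreted ligand of neuropilin and plexin complexes. It was at 55.4, 75.9 and 56.8 CPM in ASO_CTRL and 46.8, 47.5 and 33.0 CPM in ASO_LINC (log2 fold change -0.55 ± 0.18 SE, adjusted p = 0.0597). The libraries did not overlap, but the difference did not pass the test. *SEMA3B*, another secreted member, was at 9.41 to 11.0 CPM in ASO_CTRL and at 12.8, 13.0 and 25.1 CPM in ASO_LINC, the last of these in replicate 3 (log2 fold change 0.67 ± 0.26 SE, adjusted p = 0.104). *SEMA6B* and *SEMA3F* also had their highest value of all libraries in that replicate, at 5.95 and 11.9 CPM against 0.880 to 2.05 and 3.59 to 6.01 CPM in the other ASO_LINC libraries. Without it the log2 fold change was 0.31 for *SEMA3B* (adjusted p = 0.193), -1.05 for *SEMA6B* in place of -0.20 (0.0661) and -0.63 for *SEMA3F* in place of -0.14 (0.0884). *SEMA4C*, *SEMA4D* and *SEMA4F* had log2 fold changes from -0.18 to 0.09. *SEMA3B*, *SEMA3C*, *SEMA3F* and *SEMA6B* were picked out after their values had been seen.

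**Figure D3:**
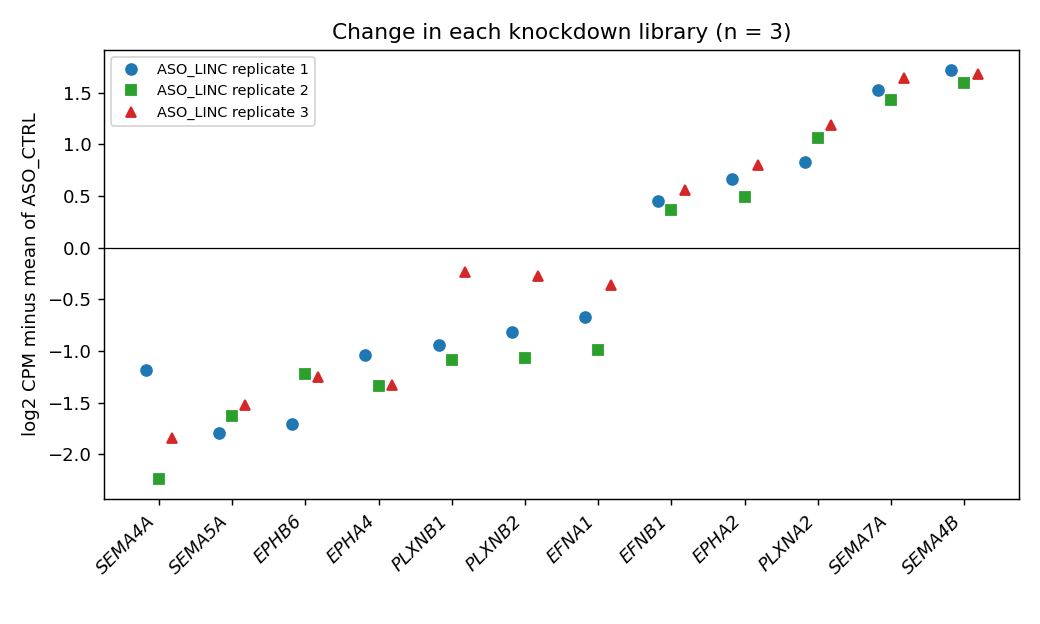
Log2 change of each ASO_LINC library from the mean of the ASO_CTRL libraries (with a prior count of 2) for the guidance genes with an adjusted p below 0.05. *SEMA4B* and *SEMA7A* were raised and *SEMA5A* and *EPHA4* lowered to a like extent in all 3 libraries, whereas for *PLXNB1* and *PLXNB2* replicate 3 lay at -0.23 and -0.28, nearer to 0 than replicates 1 and 2.

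Of the 7 plexins tested, *PLXNA2* rose and 6 did not pass the test. *PLXNA2*, a receptor for transmembrane and secreted semaphorins, was at 5.78, 4.98 and 7.04 CPM in ASO_CTRL and at 10.7, 12.6 and 13.8 CPM in ASO_LINC. All knockdown libraries exceeded all controls, with a 2.04-fold rise (log2 1.03 ± 0.21 SE, adjusted p = 0.00841). The call held when ASO_LINC replicate 3 was left out (adjusted p = 0.00597) and was lost without any other library (0.0212 to 0.0353), with a log2 fold change between 0.93 and 1.18.

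*PLXNB1* and *PLXNB2*, the receptors of the class 4 semaphorins *SEMA4D* and *SEMA4C*, were both lower in ASO_LINC but missed the threshold. *PLXNB2*, the most abundant plexin, was at 159, 170 and 164 CPM in ASO_CTRL and at 93.1, 78.2 and 135 CPM in ASO_LINC (log2 fold change -0.69 ± 0.18 SE, adjusted p = 0.0269). *PLXNB1* was at 20.8, 24.7 and 18.8 CPM in ASO_CTRL and at 11.0, 9.90 and 18.1 CPM in ASO_LINC (-0.75 ± 0.23 SE, adjusted p = 0.0474). In both genes ASO_LINC replicate 3 lay nearest to the controls. Without it both were called, *PLXNB2* at -0.94 (adjusted p = 0.000144) and *PLXNB1* at -1.02 (0.00133), in a fit in which the calls over all genes rose from 1106 to 2616. Their ligands *SEMA4D* and *SEMA4C* were at 6.42 ± 0.06 and 18.7 ± 1.06 CPM in ASO_CTRL and at 5.84 ± 1.50 and 20.1 ± 4.36 CPM in ASO_LINC (SD, n = 3), with no call. *PLXNA1*, *PLXNA3* and *PLXND1* had log2 fold changes of 0.04, -0.24 and 0.02.

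Neither neuropilin was called. Of the pair, 1 had an unadjusted p below 0.05, and DESeq2 also called 0. *NRP2*, the more abundant, was at 22.7, 22.3 and 21.2 CPM in ASO_CTRL and at 20.7, 27.0 and 17.3 CPM in ASO_LINC, with the controls inside the range of the knockdown libraries (log2 fold change -0.02 ± 0.18 SE, adjusted p = 0.965). *NRP1*, named after its values had been seen, was at 6.87 to 9.41 CPM in ASO_CTRL and at 10.5 to 13.3 CPM in ASO_LINC (0.58 ± 0.20 SE, adjusted p = 0.0676). Without ASO_LINC replicate 3 it gave 0.66 (adjusted p = 0.0201), still no call.

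None of the 8 ephrins passed both thresholds, although 4 had an unadjusted p below 0.05 and DESeq2 called 1, *EFNA1*. For 2 ephrins the adjusted p fell between 0.01 and 0.05, a range that held 10.5% of all tested genes. *EFNA1*, the main ligand of *EPHA2*, was at 55.2, 64.2 and 62.0 CPM in ASO_CTRL and at 37.7, 30.2 and 46.8 CPM in ASO_LINC (log2 fold change -0.67 ± 0.17 SE, adjusted p = 0.0210). The conditions did not overlap, and replicate 3 was again nearest to the controls. Without it the log2 fold change was -0.83 and the adjusted p 0.000877. *EFNB1*, a transmembrane ligand of EphB receptors, was at 83.2, 72.1 and 78.9 CPM in ASO_CTRL and at 106, 101 and 115 CPM in ASO_LINC (0.46 ± 0.13 SE, adjusted p = 0.0313), higher in every knockdown library but below the fold threshold.

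*EFNA4*, *EFNA3* and *EFNA1* lie close together on the plus strand of chromosome 1 (GRCh37, 155036213 to 155107375). Beside *EFNA1*, *EFNA4* gave a log2 fold change of -0.26 ± 0.21 SE (adjusted p = 0.413) with overlapping libraries, and *EFNA3* gave 0.51 ± 0.19 SE (adjusted p = 0.0956), so neither passed the test. *EFNA3* and *EFNA4* share 853 and 189 exon bases with an annotated readthrough gene, and their counts are uncertain to that extent. The remaining ephrins, *EFNA2*, *EFNA5*, *EFNB2* and *EFNB3*, had log2 fold changes from -0.39 to 0.48 and adjusted p-values of 0.109 or more.

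Among the Eph receptors, *EPHA2* rose, *EPHA4* and *EPHB6* fell, and 3 of the 6 tested did not pass the test. *EPHA2*, a receptor tyrosine kinase abundant in many carcinomas, was at 133, 142 and 130 CPM in ASO_CTRL and at 214, 190 and 235 CPM in ASO_LINC. The rise was 1.58-fold (log2 0.66 ± 0.13 SE, adjusted p = 0.00610) and set all knockdown libraries above all controls. The call held without ASO_LINC replicate 3 (adjusted p = 0.00170) and was lost without any other library (0.0112 to 0.0443), with a log2 fold change of 0.58 to 0.74.

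*EPHA4*, which binds both A and B ephrins, was at 33.7, 34.2 and 33.3 CPM in ASO_CTRL and at 16.3, 13.1 and 13.2 CPM in ASO_LINC. The controls spanned less than 1 CPM, and the fall was 2.35-fold (log2 -1.24 ± 0.16 SE, adjusted p = 0.000560). A noncoding gene on the opposite strand shares 353 of its exon bases. *EPHB6*, an Eph receptor whose kinase domain is inactive, was at 7.79, 9.61 and 9.04 CPM in ASO_CTRL and at 2.49, 3.59 and 3.51 CPM in ASO_LINC (log2 fold change -1.48 ± 0.24 SE, adjusted p = 0.00248). Its call was lost without ASO_CTRL replicate 2 (0.0125), ASO_CTRL replicate 3 (0.0175) or ASO_LINC replicate 1 (0.0202). *EPHB2*, *EPHB3* and *EPHB4* had log2 fold changes of 0.22, 0.50 and -0.31, and *EPHB4* was at 13.5 CPM in ASO_LINC replicate 3 against 6.60 and 5.98 CPM in the other ASO_LINC libraries. Without that replicate *EPHB4* gave -0.71 (adjusted p = 0.0269).

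Neither the Slits nor the Robos gave a call. *SLIT3*, the more abundant ligand, was at 80.5, 73.5 and 87.6 CPM in ASO_CTRL and at 65.8, 58.7 and 62.7 CPM in ASO_LINC (log2 fold change -0.37 ± 0.13 SE, adjusted p = 0.0759). Without ASO_LINC replicate 3 its adjusted p was 0.0332, still no call. *SLIT2* was at 3.49 to 3.71 CPM in ASO_CTRL and 4.99 to 6.83 CPM in ASO_LINC (0.69 ± 0.24 SE, adjusted p = 0.0673). The libraries of both Slits did not overlap and their changes ran in opposite directions, both with an unadjusted p below 0.05, and DESeq2 called 0 of the 2. Of the 2 Robos tested, 0 had an unadjusted p below 0.05 and DESeq2 called 0. *ROBO3* was at 6.32, 5.32 and 6.28 CPM in ASO_CTRL and at 4.99, 6.83 and 11.1 CPM in ASO_LINC (log2 fold change 0.29 ± 0.29 SE, adjusted p = 0.528), again with its highest value in replicate 3, without which it was -0.037, and *ROBO1* gave -0.31 ± 0.22 SE. In all, the 26 tested guidance genes with an adjusted p of 0.05 or more had log2 fold changes from -0.55 to 0.69.

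To compare levels between genes, CPM were divided by the length of the canonical transcript in kilobases. In ASO_CTRL the leading guidance genes on this scale were *EFNA1* (39.0 ± 3.01, SD, n = 3), *EPHA2* (34.2 ± 1.52), *PLXNB2* (25.6) and *EFNB1* (23.6), and the libraries of *EFNA1* and *EPHA2* overlapped. In ASO_LINC the order was *EPHA2* (54.0 ± 5.71), *EFNB1* (32.5), *SEMA4B* (26.0), *EFNA1* (24.6) and *SEMA7A* (21.9). *SEMA4B* moved from rank 8 to rank 3 of the 43 genes, *SEMA7A* from 9 to 5 and *EFNA1* from 1 to 4, while *SEMA5A* went from rank 17 to 30 and *EPHA4* from 11 to 20. In ASO_LINC the libraries of *EFNA1* overlapped those of *SEMA4B* and *SEMA7A*, so these neighbours in the order were not separated. The first strand was primed with oligo dT, and reads that gather near the 3′ end would make levels per length too low for long transcripts. The part of this in the order was not tested.

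The make-up of a family changed more than its total in some cases. Summed CPM per kilobase of the 13 semaphorins was 45.2 to 51.1 in ASO_CTRL and 69.3 to 80.7 in ASO_LINC. *SEMA4B* went from 17.4% to 35.0% of this sum and *SEMA7A* from 15.9% to 29.5%, while *SEMA3C* went from 26.9% to 11.8% and *SEMA5A* from 7.33% to 1.47%. The sum of the Eph receptors was 47.4 to 50.4 in ASO_CTRL and 57.9 to 71.6 in ASO_LINC, of which *EPHA2* took 69.9% and then 83.5%, *EPHA4* 10.8% and then 3.48%. The plexins summed to 37.7 to 40.3 in ASO_CTRL and to 22.8 to 35.0 in ASO_LINC (22.8 and 27.3 without replicate 3), with *PLXNB2* at 65.9% and 55.7%. The ephrins kept overlapping sums of 93.4 to 101 and 80.0 to 103, within which *EFNA1* went from 40.4% to 26.8% and *EFNB1* from 24.6% to 35.9%. Shares within a family add up to the whole, so a larger share of 1 member lowers the others, and they are given with no test.

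**Figure D4:**
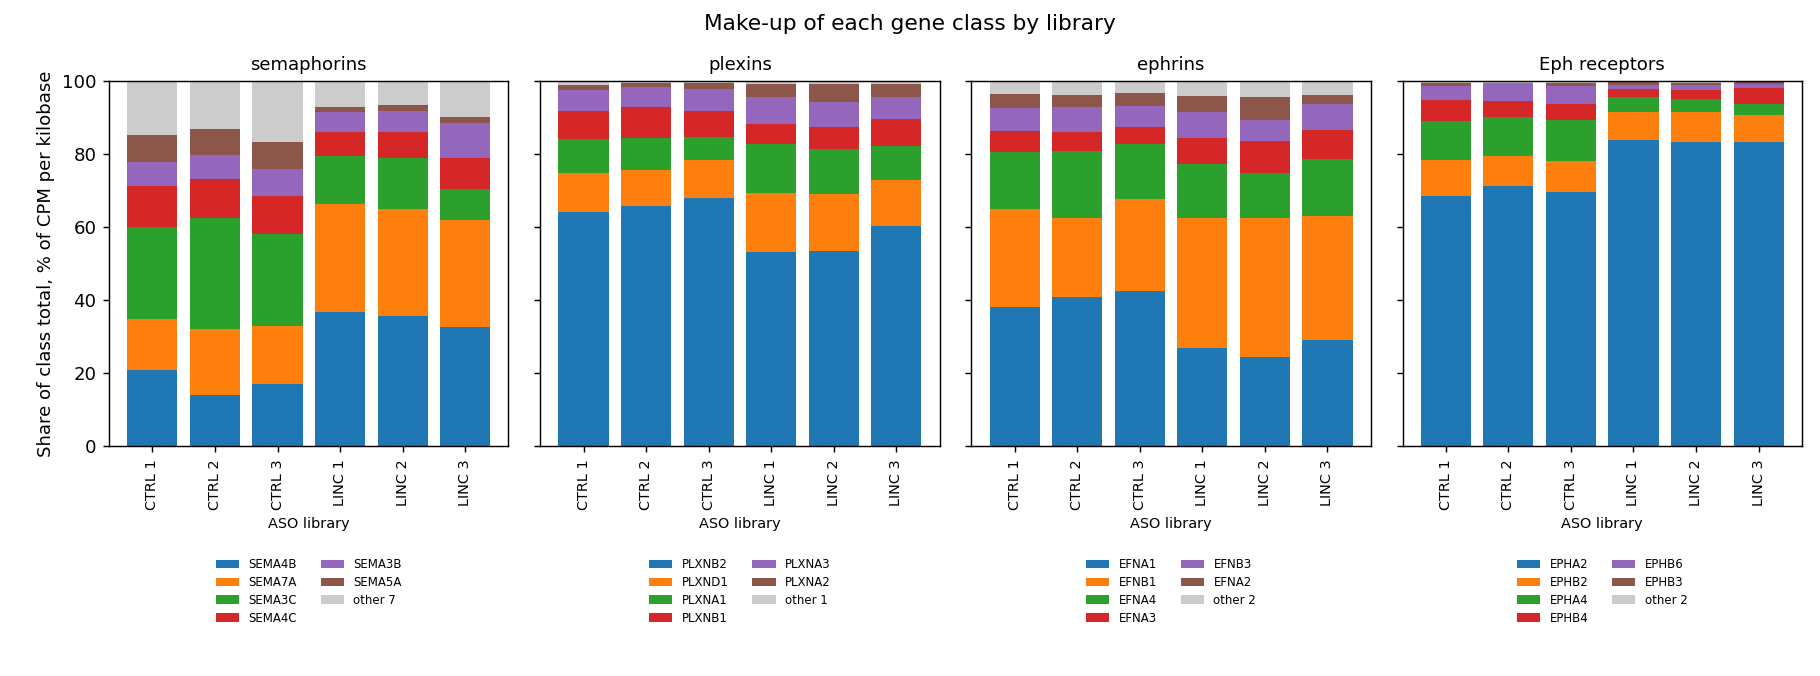
Share of each library's summed CPM per kilobase taken by the members of the semaphorins, plexins, ephrins and Eph receptors, 1 bar per library. *SEMA4B* and *SEMA7A* fill most of the semaphorin bars of ASO_LINC, and *EPHA2* rises from 69.9% to 83.5% of the Eph receptor bars.

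Partners and downstream genes of these families, in 4 lists that hold none of the 43 genes, gave 6 calls of 73 tested (8.22%), near the background of 7.54%. Of 26 partners and effectors of semaphorins and plexins, 2 rose and 2 fell. *DPYSL3*, a collapsin response mediator protein that transmits semaphorin signals to the cytoskeleton, went from 33.3 ± 1.03 to 12.2 ± 1.99 CPM (log2 fold change -1.47 ± 0.17 SE, adjusted p = 0.000292). *L1CAM*, an adhesion molecule and semaphorin co-receptor, went from 95.2 ± 7.14 to 175 ± 21.7 CPM (0.88 ± 0.14 SE, adjusted p = 0.00186).

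In the netrin and RGM family 1 of 9 tested genes was called, *RGMB*, a ligand of neogenin, which rose from 5.35 ± 0.91 to 14.4 ± 2.72 CPM (log2 fold change 1.42 ± 0.23 SE, adjusted p = 0.00212). *NEO1*, the gene of neogenin, was lower in ASO_LINC, at 31.8 ± 1.52 and then 20.0 ± 1.79 CPM, and just missed the threshold (-0.67 ± 0.15 SE, adjusted p = 0.0115). In the Slit and Robo list 1 of 16 was called, *DAG1*, the dystroglycan that binds Slits, which fell from 191 ± 8.08 to 116 ± 3.96 CPM (-0.71 ± 0.12 SE, adjusted p = 0.00264). Of the 22 tested effectors of ephrins and Eph receptors, edgeR and DESeq2 both called 0, and 7 had an unadjusted p below 0.05.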

How the data were processed

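Single-end RNA-seq of 3 ASO_CTRL and 3 ASO_LINC libraries of H226 cells was used. Conditions and replicate numbers come from the sample labels. The methods of the study name another cell line for the RNA-seq, and the labels were followed. STAR and the hg19 build were used for alignment by the authors, and the deposited values are raw counts of reads on each gene name, not normalized. The counting tool and strand setting are not given in the sources used here. In each library 24.8% to 28.1% of reads fell on no gene, in 4 summary rows, and were left out.

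The comparison used edgeR 4.0.16 under R 4.3.3 (filterByExpr, TMM scaling, quasi-likelihood F-test, no block), with Benjamini-Hochberg adjustment over all 14660 tested genes and the thresholds of the study's methods, an adjusted p below 0.01 and a log2 fold change beyond 0.5. The standard error is the log2 fold change divided by the square root of F. CPM are scaled by TMM, and changes of single libraries use a prior count of 2. The fit was tested on simulated data. Alternatives were DESeq2 1.42.0, limma-voom (limma 3.58.1), other scalings and filters, glmTreat, the replicate block and leaving out each library.

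The members, pathway lists and markers were chosen with earlier results of these data known. Genes were named where they passed both thresholds, had an adjusted p from 0.01 to below 0.05, or had the highest mean CPM of their family. The rule also takes in *SEMA5A* and *SEMA4A*, which the study names and which passed both thresholds. For pathway lists up to 3 called genes each were named. Other members given with values, and the uncalled pathway genes *DPYSL2* and *NEO1*, were picked after their values had been seen. The fourth call among the semaphorin partners was left out by this rule, and 1 pathway gene is not reported here.

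Each library was counted as 1 replicate. Libraries of a condition differed by more than sampling noise (chi-square per degree of freedom 2.50 to 14.0), which does not show that they are independent. The study's reporting form gives biological triplicates as its general rule, with exceptions named in figure legends. No label says that replicates are separate cultures, so p-values measure the spread between these libraries, which may be technical. For 1 gene, exact permutation of 3 against 3 libraries allows no p below 0.1. Positions and transcript lengths come from GENCODE on GRCh37, promoters from RefSeq on GRCh38.p14. The 8 called genes all had promoter entries.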

Additional observations from a re-analysis of the deposited data

How the results depend on the processing

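*SEMA4B*, *SEMA7A*, *SEMA5A* and *EPHA4* kept their call and direction under every alternative and without any single library. The number of guidance genes called, 8, went to 4 under glmTreat, which tests against the fold threshold (2 higher, 2 lower), and to 5 under the replicate block (2 higher). With an adjusted p below 0.05 it was 11, of which 7 were lower. Without 1 library it ranged from 4 to 10 (2 to 4 higher, 2 to 6 lower), and the 10 came without ASO_LINC replicate 3. Calls over all genes, 1106, were 384 under glmTreat, 656 under the block, 2465 at the looser adjusted p and 359 to 2616 without 1 library. Replicate numbers did not pair the libraries: correlations of same-numbered deviations were 0.06, -0.15 and -0.18, and not every library correlated best with its own number. Under the block *EPHA2* (adjusted p = 0.0253), *PLXNA2* (0.0167) and *SEMA4A* (0.0245) lost their call. *SEMA4A* was also lost with library size only (0.0106), no filter (0.0129) and DESeq2 (0.0179), and it dropped out when at least 10 counts per library were asked for. DESeq2 called 9 guidance genes, *EFNA1* (0.00765) and *PLXNB2* (0.00689) among them. The sign of *NRP2*, close to 0, changed with library size only (0.00168) and across leave-one-out fits (-0.20 to 0.11). That of *ROBO3* changed without ASO_LINC replicate 3 (leave-one-out fits -0.037 to 0.54). The cause of these shifts was not tested. Genes with under 30 reads per library, such as *PLXNC1* and *EPHB3*, limit what a missing call can say.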
